A study of Citrus unshiu with 2 samples.

Results

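The regions described here are the stretches of exon and intron in which CG methylation differed between drought-treated and normally watered satsuma mandarin. They were taken from the authors' deposited list of differentially methylated CG regions, counting each chromosome, start and end once. A region belonged when its listed features named an exon or an intron and named neither a promoter nor a 3' UTR. There were 883 such regions of 2782 in all. The p-value was not used for the choice, but every listed region had already been chosen by the authors from the same contrast, so the sizes and directions below are descriptions with no test. The highest uncorrected p-value among the 883 regions was 0.0473.

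The study measured DNA methylation by whole-genome bisulfite sequencing of shoots (mature stems) of Citrus unshiu. The trees grew in root-limiting containers in a rain-proof tunnel, and 20 trees were assigned to each condition. The normal water group was the control, and in the light drought group soil water was left to evaporate until moisture reached about 15%, in a treatment that lasted 75 days. Each group has 1 library, with the number of trees in it not given in the sources used here. No spread between trees can therefore be computed, and every difference, in percentage points, is the light drought level less the normal water level of 2 libraries whose depth is unknown. The treatment, the trees taken and the sampling of reads cannot be told apart as sources of a difference. Stems hold several cell types, so another mix of cells and another methylation level per cell cannot be told apart either.

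In plants, cytosines followed by G (the CG context) are methylated by MET1, which copies the mark onto the new strand after replication. In Arabidopsis many evenly expressed genes carry CG methylation in their exons with little in the other contexts, CHG and CHH (H is any base but G), and this is called gene-body methylation. CHG methylation is kept by the chromomethylase CMT3 in a loop with histone H3 lysine 9 methylation, and exons that carry it resemble silenced transposons. The gene identifiers of the files are paired with no gene name there or in the RefSeq gene table of the species, so no function is given to any gene.

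The listed regions in exons or introns were more often higher than lower under light drought, at about the share of the whole list. Of the 883 regions, 624 were higher and 259 lower, so that 70.7% were higher, next to 70% of the whole list of CG regions. The median difference was 22.8 points among the higher regions, with quartiles of 15.9 and 32.9. Among the lower regions it was -18.8 points, with quartiles of -25.8 and -11.8. The mean over all 883 was 12.1 points (SD 23.4 over regions), and the extremes were 63.7 and -57.0 points. Differences of at least 30 points were found in 222 regions, or 25.1%, where the whole list had 21.6%. Of these 222 regions, 186 were higher and 36 lower, next to 510 higher and 92 lower of 602 in the whole list. At the other end, 96 regions (10.9%) differed by less than 10 points, next to 18.3% of the whole list and 21.7% of the CG regions elsewhere. The parts elsewhere were unlike each other. The share under 10 points was 30.1% outside gene features and 15.4% in downstream flanks or 5' UTRs alone. It was 14.1% in promoters and 5.77% in 3' UTRs. The share of at least 30 points was 13.5% outside gene features and 23.8% in downstream flanks or 5' UTRs alone. It was 19.7% in promoters and 45.2% in 3' UTRs.

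The regions were short. Their length ranged from 10 to 440 bp with a median of 89 bp and quartiles of 62 and 118.5 bp, and together they covered 82941 bp. The median was 89 bp for higher and 87 bp for lower regions. The number of CG cytosines ranged from 10 to 81, and 590 regions (66.8%) had exactly 10, the lowest number in the list. Only 22 regions had 20 or more. The median density was 12.4 CG cytosines per 100 bp, next to 13.0 in the CG regions that lie elsewhere. The shortest region held 10 CG cytosines in 10 bp, so both strands were counted and the number of CG sites is lower.

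**Figure D1:**
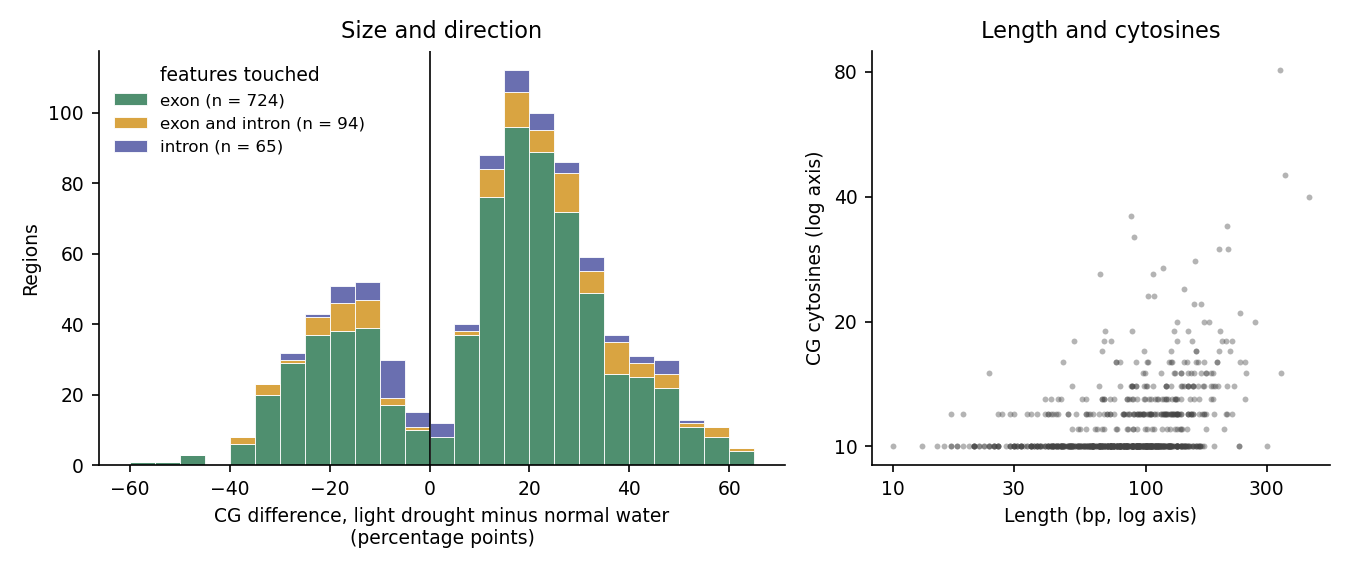
Left, number of regions by CG difference (light drought minus normal water, percentage points, bins of 5 points), coloured by the features touched. Right, number of CG cytosines against length in bp, both on log axes, with 1 point per region. The higher regions outnumber the lower ones by 624 to 259, and most points of the right panel lie on the lowest row, at 10 cytosines.

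Exons held most of the regions. There were 724 that touched exons and no intron, 94 that crossed between exon and intron, and 65 that touched introns and no exon. The share of higher regions was 72.2% in the exon group, 68.1% in the crossing group and 56.9% in the intron group. The intron value rests in part on a single gene with 10 lower regions, and without it 67.3% of the remaining 55 intron regions were higher. The mean difference was 12.1 points in exons (SD 23.3), 14.2 points in crossing regions (SD 25.5) and 9.19 points in introns (SD 21.5), or 12.05 points in introns without that gene. Small differences were most common in introns, with 32.3% under 10 points, next to 9.81% in exons and 4.26% in crossing regions, and without the gene of 10 regions 20% of the intron regions were that small. A downstream flank was also touched by 14 of the 883 regions and a 5' UTR by 10. No test of the difference between these groups was made, since regions of the same 2 libraries are not replicates.

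Set beside CG regions elsewhere, the regions in exons or introns lay between the others in their share of higher regions, with no test of that difference. Those in 3' UTRs were higher in 85.6% of 208 cases with a mean of 24.1 points (SD 23.3). Those in promoters were higher in 63.7% of 355 cases with a mean of 7.55 points (SD 23.7), and those outside gene features in 68.6% of 991 cases with a mean of 7.30 points (SD 19.3). Closest were the regions in downstream flanks or 5' UTRs alone, higher in 69.3% of 345 cases with a mean of 11.7 points (SD 23.7). The regions in exons or introns had 70.7% and 12.1 points (SD 23.4). Median lengths were 96 bp in 3' UTRs, 93 bp in promoters and 84 bp outside gene features. Across chromosomes, the share of higher regions in exons or introns ran from 61.3% of 75 on chromosome 3 to 83.1% of 71 on chromosome 4. The unplaced sequence stood at 68.4% of 158. For the whole list of CG regions the same chromosomes stood at 69.9% for chromosome 3 and 69.8% for chromosome 4.

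Few of these regions had a small corrected p-value in the authors' deposited table. It was under 0.05 in 2 of 883, or 0.227%, while the whole list had 23 of 2782, or 0.827%. The corrected value was 1 in 777 of the 883 regions. Ranks by corrected and by uncorrected p-value differ in the authors' deposited table. On chromosome 8 at 21447111 an uncorrected p of 5.15e-08 stands beside a corrected 0.0436, while on chromosome 7 at 23020564 an uncorrected 1.5e-09 stands beside 0.276. How the correction was made is not stated there, so an order by corrected p is the authors' own. An uncorrected p-value under 0.0001 was listed for 217 regions, or 24.6%, next to 23.7% of the whole list. With 1 library per group, neither kind of p-value can hold the spread between trees. Counts and ranks by p therefore describe the authors' list and are no test between conditions. The lowest uncorrected p-value in the authors' deposited table also went with the number of cytosines. Among the 883 regions it was 1.08e-05 at 10 cytosines and 7.4e-07 at 12 cytosines. Both regions with a corrected value under 0.05 lie in exons, and they point in opposite directions. In the authors' deposited table, the exon region at 67327284 to 67327478 of the unplaced sequence had 30 cytosines, a difference of 21.6 points and a corrected p of 0.00124. Its gene stood at 41.95% in gene-body CG under normal water and at 61.4% under light drought, and in exons at 23.3% and 48.9%. That gene also carried CHG methylation, at 42.9% and 51.8% over the body, and its promoter stood at 67.3% and 89.6% in CG. The other, on chromosome 8 at 21447111 to 21447344, had 21 cytosines and -52.0 points in the authors' deposited table, which lists a corrected p of 0.0436. Over the whole body its gene differed by less, at 50.7% and 43.9%, while its introns stood at 55.1% and 35.25%. All coordinates are those of the authors' tables, with the genome build not given in the sources used here.

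Another 3 regions follow in order of corrected p-value, with values above 0.05. In the authors' deposited table, the longest of the 883 regions, of 440 bp and 40 cytosines on chromosome 2 at 7084316 to 7084755, had 46.7 points and 0.0659 for the corrected p. It crosses between exon and intron, and its gene stood at 14.1% under normal water and 30.3% under light drought in gene-body CG. The exon region on chromosome 8 at 20590823 to 20590968 had -10.0 points and 0.0794 for the corrected p in the authors' deposited table, and its gene was almost free of CG methylation, at 2.61% and 4.70%. The exon region on chromosome 8 at 13778243 to 13778383 had 28.5 points and 0.107 in the authors' deposited table. Its gene stood in CG at 19.3% and 44.0% over the body and at 55.6% and 94.4% in the promoter. That gene also carried CHG methylation, at 38.2% and 47.5% over the body.

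Of the 5 largest positive differences, 4 lay in exons and 1 crossed into an intron. In the authors' deposited table, the region at 9626925 to 9627005 of chromosome 7, of 81 bp and 12 cytosines, was higher by 63.7 points. Its gene had almost no CG methylation in the body under normal water, at 2%, and 34.5% under light drought. The intron level of the same gene stood at 1.19% and 14.96%, although the region touches no intron, and its promoter at 8.51% and 11.6%. Next came chromosome 9 at 18235393 to 18235434 with 61.3 points over 42 bp, and chromosome 5 at 1291671 to 1291752 with 61.0 points, both from the authors' deposited table. The gene on chromosome 9 stood at 18.8% under normal water and 30.4% under light drought in gene-body CG, and the gene on chromosome 5 at 40.8% and 49.1%. A crossing region at 2300400 to 2300528 of chromosome 3 also had 61.0 points in the authors' deposited table. It lies in a gene with CHG methylation, which stood at 26.55% and 34.4% in gene-body CHG. The last, at 3147588 to 3147666 of chromosome 4, had 60.6 points in the authors' deposited table, with 17.8% and 29.1% in gene-body CG.

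The 5 largest negative differences all lay in exons. In the authors' deposited table, a region of 37 bp on chromosome 1, at 25194359 to 25194395, had -57.0 points. Over its whole gene the levels were close, at 49.2% under normal water and 47.0% under light drought. On chromosome 3, at 28618029 to 28618133, the authors' deposited table gives -47.1 points, and here the gene body differed as well, with 64.35% and 34.1% in CG and 50.2% and 20.5% in CHG. A region of the unplaced sequence at 3996032 to 3996063 had -46.2 points in the authors' deposited table, with gene-body levels of 37.6% and 24.3%. On chromosome 7, at 9166757 to 9166910, the authors' deposited table gives -45.7 points, with gene-body levels of 16.7% and 8.30%. A large local difference was thus found both with and without a large difference over the gene.

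The 883 regions fell in the exons or introns of 782 genes, all of which were listed in both gene tables. No region touched the exon or intron of more than 1 gene. There were 545 genes with higher regions only, 209 with lower regions only and 28 with both. The body levels that follow hold the cytosines of the regions themselves, so they restate part of the choice and are given without a test.

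Genes with higher regions had less CG methylation under normal water than genes with lower regions, and about as much under light drought. Their mean gene-body CG level was 26.5% under normal water and 33.4% under light drought, a difference of 6.88 points (SD 6.48 over 545 genes), with medians of 20.3% and 29.6%. Genes with lower regions stood at 37.1% and 33.8%, a difference of -3.26 points (SD 5.64 over 209 genes), with medians of 35.8% and 32.4%. The 28 genes with both stood at 24.0% and 26.3%. Over all 29073 genes in both tables the means were 36.5% and 37.3%, with medians of 32.3% and 33.8%. The genes were grouped by direction, so their levels under normal water are not independent of that choice.

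Among the 754 genes with a single direction, 649 (86.1%) had a gene-body difference of the same sign as their regions. It was higher in 498 of 545 genes with higher regions, or 91.4%, where 51.7% of all genes were higher. It was lower in 151 of 209 genes with lower regions, or 72.2%, where 35.6% of all genes were lower. The exceptions reached -6.94 points in genes with higher regions and 11.95 points in genes with lower regions. The direction of the region list was read from the order in its name, light drought first, and these shares are the check of it against the labelled gene tables.

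By a fixed size of 20 points, which stands in for a test, 28 of the 782 genes were higher in gene-body CG and 4 lower. That is 3.58% and 0.512%, where all genes gave 1.19% and 0.774%. In exon CG level, 50 were higher (6.39%) and 9 lower (1.15%), where all genes gave 1.55% and 0.973%.

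**Figure D2:**
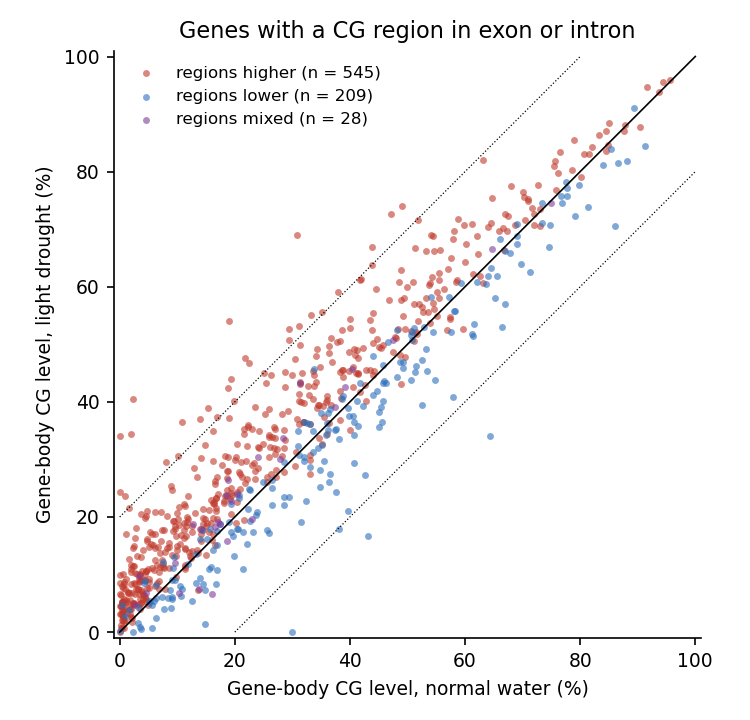
Gene-body CG level (percent) under normal water (x) and light drought (y) for the 782 genes with a region in exon or intron, with 1 point per gene, coloured by the direction of its regions. The solid line marks equal levels and the dotted lines a difference of 20 points. Of the genes with higher regions 498 lie above the solid line and 47 below it, and of those with lower regions 151 lie below and 58 above.

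The largest positive gene-body differences came with levels of at most 30.8% under normal water. The gene orange1.1t03229 stood at 30.8% and 69.0%, and the authors' deposited table has a region of 52.2 points at 49843092 to 49843176 of the unplaced sequence, in its exon. Cs5g13280 stood at 2.30% and 40.4% over the body, and its exons were listed at 0 under normal water and at 36.7% under light drought. Its region in the authors' deposited table, at 10357977 to 10358016 of chromosome 5, had 44.6 points. The gene with the exon region on chromosome 2 at 24225701 to 24225788 stood at 18.96% and 53.99%. The gene with the exon region on chromosome 6 at 15657567 to 15657596 was listed at 0 under normal water and at 34.1% under light drought. In these 4 genes the CHG gene-body level was at most 0.61% in either library, so the difference lay in CG.

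Of the 5 genes with the most negative gene-body CG difference, 3 were also lower by over 20 points in CHG. Cs3g27750, which holds the chromosome 3 region of -47.1 points above, differed by -30.3 points in CG and -29.7 points in CHG over the gene body. Cs4g10360 stood at 29.85% in CG and 30.3% in CHG under normal water and was listed at 0 in both contexts under light drought. The authors' deposited table has a pair of exon regions there on chromosome 4, at 7004733 to 7004977 with -39.2 points and at 7004998 to 7005158 with -23.3 points. A gene of the unplaced sequence with an exon region at 81318341 to 81318498 stood at 43.1% and 16.7% in CG and at 45.3% and 16.2% in CHG. The gene with the exon region at 24371634 to 24371685 of the unplaced sequence stood at 38.1% and 17.96% in CG, while its CHG level was 0.63% and 5.26%. The fifth, with an exon region on chromosome 5 at 13121622 to 13121720, stood at 39.7% and 21.0% in CG and at 24.97% and 17.2% in CHG, and its exons stood at 66.2% and 14.7% in CG.

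The genes were chosen for a region in exon or intron that touches neither promoter nor 3' UTR, so a larger CG difference in exons than in flanks is set by that choice, and the values by feature are a description. In genes with higher regions the exon level was higher by 8.02 points (SD 7.57) and the intron level by 2.56 points (SD 10.4). Their promoters were higher by 2.12 points (SD 8.97) and their downstream flanks by 1.65 points (SD 9.43). In genes with lower regions the exon level differed by -4.59 points (SD 7.46) and the intron level by -1.02 points (SD 11.04). Their promoters were nevertheless higher by 1.44 points (SD 8.81), their 3' UTRs by 0.936 points (SD 9.22) and their downstream flanks by 2.47 points (SD 9.904). Over all genes the promoters were higher by 1.41 points (SD 10.7), the 3' UTRs by 1.55 points (SD 10.3) and the downstream flanks by 1.71 points (SD 11.4). The flanks of genes with lower regions thus stood higher under light drought on average, as flanks did over all genes.

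For genes whose regions touch exons and no intron, a smaller difference in introns than in exons is likewise set by the choice. In the 450 of these with higher regions, the exon level was higher by 8.18 points (SD 7.49) and the intron level by 1.16 points (SD 9.65). Many of these genes were listed at 0 for introns, and among the 231 above 0 in both libraries the intron level was 42.9% against 40.3%, or 2.59 points higher (SD 9.78). Over all 14664 genes above 0 in both libraries introns were higher by 0.680 points (SD 8.17). In the 81 such genes with lower exon regions the intron levels were 52.9% in each library, with a difference of 0.0369 points (SD 11.8).

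**Figure D3:**
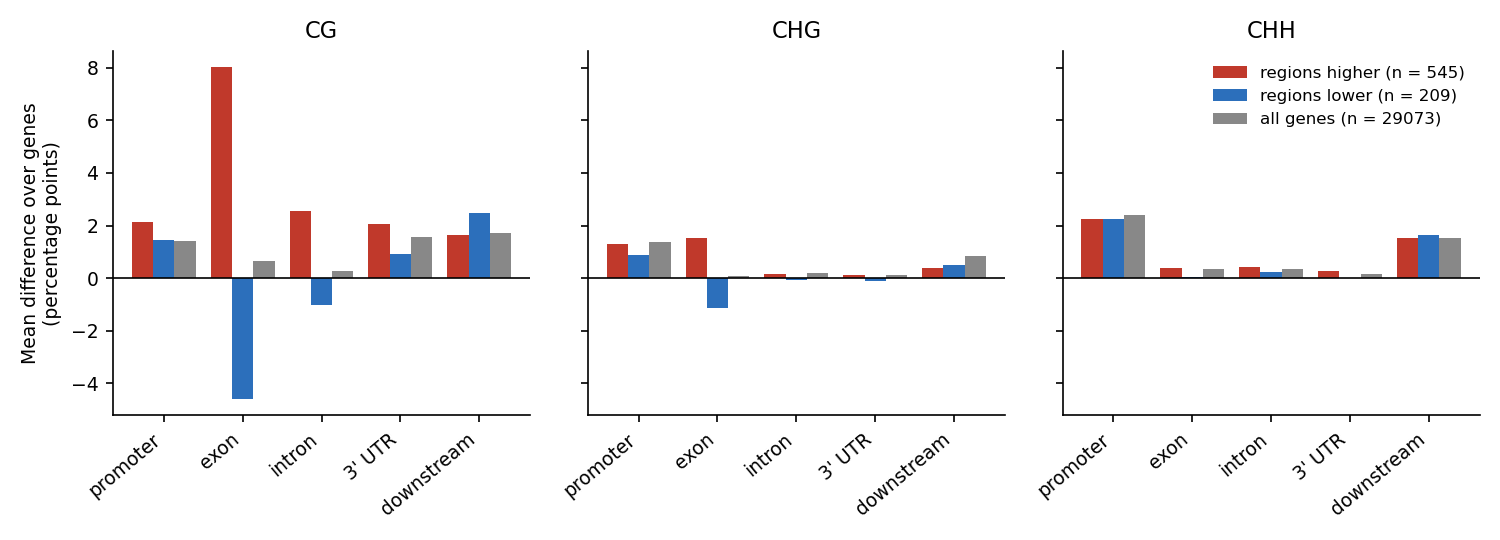
Mean difference in methylation level (light drought minus normal water, percentage points) by gene feature and context, over genes with higher regions, genes with lower regions and all genes. Bars are means over listed genes. In CG the exon bars stand at 8.02 and -4.59 points for the groups with regions and at 0.650 points for all genes, while promoters and downstream flanks are above 0 in all 3 groups.

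The mean CHG difference had the direction of the CG regions and was smaller. The mean CHG gene-body difference was 1.26 points (SD 3.65) in genes with higher regions and -0.889 points (SD 4.41) in genes with lower regions, with 0.191 points (SD 6.66) over all genes. Medians were 0.23 and -0.02 points. By the fixed size of 20 points, 2 of the 782 genes were higher in gene-body CHG and 3 lower, or 0.256% and 0.384%, where all genes gave 0.616% and 0.557%. The gene with the largest positive CHG difference has an exon region at 57677374 to 57677530 of the unplaced sequence, and stood at 9.85% and 38.4% in CHG and at 15.4% and 38.9% in CG. The next has an exon region on chromosome 8 at 451667 to 451814, with 15.7% and 36.2% in CHG and 8.06% and 29.6% in CG. Another, with an exon region on chromosome 6 at 3849676 to 3849799, stood at 27.97% and 47.1% in CHG.

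CHH gene-body levels were low and did not mirror the regions. They were 2.34% under normal water and 2.77% under light drought in genes with higher regions, and 2.47% and 2.65% in genes with lower regions. The CHH level was higher under light drought in 403 of 545 genes with higher regions (73.9%) and in 132 of 209 genes with lower regions (63.2%), where 61.7% of all genes were higher. A CHH difference of 10 points was reached by 0 of the 782 genes in either direction, where all genes gave 0.757% higher and 0.368% lower. In promoters CHH was higher by 2.255 points (SD 4.997) in genes with higher regions, by 2.257 points (SD 4.11) in genes with lower regions and by 2.40 points (SD 5.39) over all genes.

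Most of the genes had CG methylation in exons with an averaged CHG level under 20%. Classes were set from exon levels averaged over both libraries. A gene was called CHG-methylated at a CHG level of at least 20%, CG-only at a CG level of at least 10% with less CHG, and unmethylated below both. The CG-only class can therefore hold genes with CHG methylation. Cs4g10360 counted as CG-only, with 30.3% in gene-body CHG under normal water and 0 under light drought. Of the 782 genes, 484 were CG-only (61.9%), 125 CHG-methylated (16.0%) and 173 unmethylated (22.1%). Over all 29073 genes the shares were 46.1%, 15.3% and 38.6%. A region was held by 3.61% of all CG-only genes, 2.80% of CHG-methylated genes and 1.54% of unmethylated genes. These shares are not enrichments, because the number of CG cytosines that could be tested per gene is not known here, and because the region itself adds to the level of its gene.

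Regions in unmethylated genes were the most one-sided. There 146 of 185 regions were higher, or 78.9%, next to 68.0% of 559 regions in CG-only genes and 70.5% of 139 in CHG-methylated genes. In the 134 unmethylated genes with higher regions, the exon CG level averaged 2.45% under normal water and 7.19% under light drought, a difference of 4.74 points (SD 3.38). Their exon CHG level was 0.706% and 1.19%. A level can differ downward by no more than its own size, and the part of this limit in the share was not tested. Regions of at least 30 points were most common in CG-only genes, at 30.9%, next to 18.4% in unmethylated and 10.8% in CHG-methylated genes. This contrast is partly set by the classes, since a large difference raises the average that defines them. Cs5g13280, with exons at 0 under normal water and 36.7% under light drought, counted as CG-only for example. In CHG-methylated genes both contexts differed in the same direction, with exon CG and CHG higher by 8.82 points (SD 7.23) and 6.02 points (SD 7.66) in the 84 genes with higher regions. In the 36 with lower regions they differed by -6.61 points (SD 8.20) and -4.93 points (SD 8.59).

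Genes with an intermediate exon level held regions most often. The share of genes with a region was 0.295% at an average exon CG level above 0 and up to 1%, 3.30% between 1 and 5%, and 7.33% between 5 and 10%. It was highest between 10 and 20%, at 8.96% (154 of 1719 genes), then 6.26% between 20 and 40%, 4.63% between 40 and 60% and 2.55% between 60 and 80%. Above 90% it was 0.217% (8 of 3688 genes). None of the 4882 genes with exons at 0 in both libraries held one, which for exon regions is set by the choice, since a difference needs a level above 0. The averaged exon level holds the cytosines of the exon regions themselves, so the band of a gene is not independent of its region. Among genes with a single direction, higher regions made up 86.1% between 1 and 5%, 73.9% between 5 and 10%, 75.7% between 10 and 20% and 72.1% between 20 and 40%. The share was 63.8% between 40 and 60%, 70.9% between 60 and 80% and 63.0% between 80 and 90%, so it did not fall steadily. A level near 0 or 100% leaves little room for a difference in points.

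**Figure D4:**
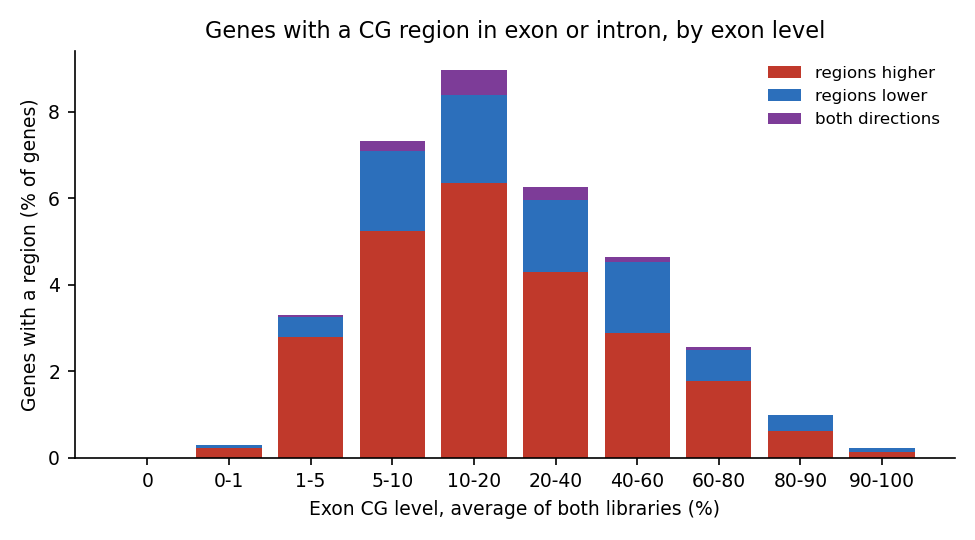
Percent of genes that hold a CG region in exon or intron, by exon CG level averaged over both libraries (percent), split by the direction of the gene's regions. Bars start at 0. The share is highest at 8.96% for genes between 10 and 20% and falls to 0.217% above 90%.

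Several regions in a gene did not always share a direction. A single region was found in 706 genes and 2 or more in 76 genes, which together held 177 regions. In 38 of these 76 genes all regions were higher, in 10 all were lower, and in 28 there were both. Neighbouring regions within 100 bp numbered 42 pairs, of which 34 had the same direction. The 11 pairs that touched had the same direction in 11 cases. Of all 883 regions 70.7% were higher, so many pairs would share a direction anyway, and that share was not computed. Touching regions adjoin each other and some pairs lie in the same gene, so they are not separate cases.

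There were 13 genes with 3 or more regions, 4 of them with higher regions only, 4 with lower regions only and 5 with both. The gene with the most had 10 regions, all intronic and all lower, within 2387 bp of chromosome 7 from 23019971 to 23022357. These differed little, from -3.87 to -9.74 points, but were dense in CG, with 269 CG cytosines in all, of which a single region of 338 bp held 81. The intron CG level of the gene was 82.2% and 76.3%, while its exon level was 31.0% and 32.4%. Its lowest corrected p in the authors' deposited table was 0.276, beside an uncorrected p of 1.5e-09. A gene of the unplaced sequence held 6 regions within 414 bp, from 2339732 to 2340145, of which 5 were higher and 1 lower, between -13.0 and 14.4 points, and its gene-body level was 19.3% and 22.8%. The other 4 genes with both directions had 3 regions each, 2 higher and 1 lower. Of these, the gene on chromosome 7 with regions from 17616000 to 17617652 ran from -24.7 to 18.8 points and stood at 40.4% and 45.6% over the body.

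The 4 genes with higher regions only had 9.79 to 20.2 points more CG methylation over the whole body. The gene on chromosome 9 with regions from 4239218 to 4239989 had differences of 24.4, 44.05 and 55.5 points in the authors' deposited table, and its gene-body level was 19.9% and 40.1%. The gene on chromosome 2 with regions from 14294335 to 14295345 stood at 4.61% and 20.2%. The gene on chromosome 5 with regions from 29034188 to 29036444 stood at 16.9% and 26.97%, and the gene on chromosome 7 with regions from 10506626 to 10509415 at 16.5% and 26.3%. In all 4 the CHG level was at most 2.51% in either library. The genes with lower regions only included 4 exon regions within 395 bp of chromosome 5, from 21417819 to 21418213, where the gene-body level was 74.6% and 66.9%. On chromosome 7, 3 exon regions within 192 bp held 58 CG cytosines, from 25305347 to 25305538, and the gene-body level was 79.0% and 72.4%. On chromosome 3, 3 exon regions from 23579101 to 23579382 ran from -33.8 to -4.58 points, and the exon level was 37.3% and 28.3%.

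**Figure D5:**
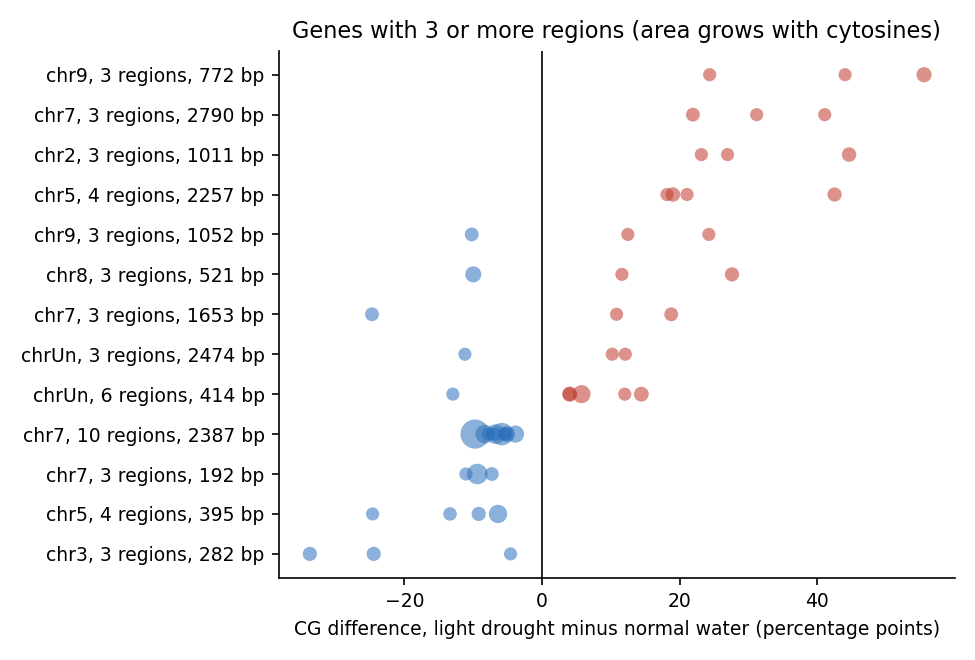
CG difference (light drought minus normal water, percentage points) of each region in the 13 genes with 3 or more regions, with 1 row per gene labelled by chromosome, number of regions and the span they cover, and point area growing with the number of CG cytosines. The row with 10 regions lies between -9.74 and -3.87 points, and in 5 rows regions lie on both sides of 0.

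Regions in exons or introns overlapped listed CHG regions by at least 1 bp in 67 cases, or 7.59%, next to 10.7% of the CG regions elsewhere. Direction was shared in 68 of the 69 pairs, 53 of them higher in both contexts and 15 lower in both, next to 205 of 206 pairs for the CG regions elsewhere. The exception lies on chromosome 1 at 3233627 to 3233680, where the authors' deposited tables give 23.5 points in CG and -11.9 points in CHG. The median size in the 68 pairs was 20.3 points in CG and 17.7 points in CHG. The overlap was 21.6% of regions in CHG-methylated genes, 5.37% in CG-only genes and 3.78% in unmethylated genes. The CG and CHG lists come from the same 2 libraries and the same reads, so the shared direction is not independent support for either.

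Listed CHH regions overlapped fewer, with 22 regions, or 2.49%, next to 11.7% of the CG regions elsewhere. Of the 25 pairs, 14 had the same direction, or 56.0%, whereas the pairs of CG regions elsewhere had the same direction in 84.8% of 243. The opposite pairs were mostly of small CG differences, with a median size of 5.37 points, against 21.8 points in the 14 pairs of the same direction. An opposite pair on chromosome 5 nevertheless had -21.1 points in CG. In CHH the median sizes were 6.64 and 14.5 points. In 10 of the 11 opposite pairs CG was lower and CHH higher under light drought, by 0.655 to 26.1 points in CHH. The intronic cluster on chromosome 7 gave 4 of these, and a single crossing region on chromosome 9 at 8128908 to 8129007 gave 3. Leaving out the gene of that cluster brings the share with a shared direction to 66.7%. Higher regions paired with a higher CHH region in 13 of 14 pairs, and lower regions in 10 of 11. The CHH region of a pair was thus mostly higher whichever way CG differed, and the shared direction depended mostly on the direction in CG. Among the CG regions elsewhere, higher regions paired with a higher CHH region in 180 pairs and a lower one in 8. Their lower regions paired with a higher one in 29 pairs and a lower one in 26. The share of higher regions over the whole CHH list is not given here.

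Other listed regions in the same genes were counted beside all genes. A CHG region in exon or intron was listed for 104 of the 782 genes, or 13.3%, next to 2.90% of all genes. That count includes CHG regions that overlap the CG regions, as was the case for 67 of the 883, so the lists are not independent. All genes also include the 4882 with exon CG at 0 in both libraries. A CHH region in exon or intron was listed for 124, or 15.9%, next to 8.84%. In the promoter, the shares were 2.43% for CG and 32.2% for CHH, next to 1.24% and 29.1% of all genes. The 173 genes with higher regions and a CHH region in the promoter had only higher ones in 120 cases and only lower ones in 27. For the 64 genes with lower regions these counts were 46 and 7. Over all genes, 6110 of the 8457 with a CHH region in the promoter had only higher ones, so both groups were close to the background. A CG region in the 3' UTR was listed for 9 of the 782 genes, or 1.15%, next to 0.764% of all genes, and in the downstream flank for 27, or 3.45%, next to 1.33%. Gene length was not used here.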

How the data were processed

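Shoots of 1 light drought and 1 normal water library were compared. Per the submitters' processing notes, Bismark 0.20.1, SAMtools 1.4 and bedtools 2.26.0 were used, with no role given. The authors deposited gene tables of methylation levels in percent, per the file headers, with no read numbers. The depth behind a level is therefore unknown, and none carries an interval. The authors also deposited region lists with a difference in points (a signed score), p-values and corrected p-values, and other columns (coordinates, cytosines). The caller, build, coverage minimum, conversion rate and flank distances: not given in the sources used here. In the lists, 6 columns of group levels were not used, since their names match no label. Starts are printed counted from 1. In all 647 regions with 1 listed feature the overlap equalled end minus start. A level of 0 may stand for no such feature or no covered cytosine. Members, lists and rules were chosen with earlier results of these data known. Named regions were the 5 largest differences each way and the smallest corrected p-values. Named genes had the 5 largest gene-body CG differences each way with a region of that sign, the 3 largest CHG differences each way, or 3 or more regions, and identifiers are printed for 2 each way. Not every item so ranked is given in the text. With 1 library per group no test between conditions was made. The scripts ran under Python 3.11.15 with pandas 2.3.3 and numpy 2.4.6, drew with matplotlib 3.10.9 and were tested on simulated data. Alternatives changed the cytosine minimum, size, p threshold, features, overlap and genes used.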

Additional observations from a re-analysis of the deposited data

How the results depend on the processing

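No paired analysis was possible because a condition is represented by 1 library, and none could be left out. Counts, means and medians were held to have moved if they differed by over 1.5 times, and a share when it left the 95% exact binomial interval. That interval is of the main setting and takes regions, pairs or genes as separate draws, which they are not. It makes no allowance for the size of a smaller set, so it is a rule of description and no test. The settings without the gene of 10 regions and with only genes of 1 region were chosen after the data were seen. Of 108 recalculated values, 28 moved, 79 did not, and a further 1 reversed. That was the mean difference at a corrected p under 0.05, -15.2 points, which rests on 2 regions, 1 higher and 1 lower (50%), with a median length of 214.5 bp and a lower difference of -52.0 points. With at least 15 cytosines, 54 regions were higher and 25 lower, with a median length of 146 bp. With at least 30 points, 186 were higher and 36 lower (83.8% higher), with a mean of 28.6 points and medians of 39.2 and -33.7 points. That size left 10 regions overlapping CHG and 3 overlapping CHH, with 100% of pairs in the same direction. Introns without exons gave 37 higher and 28 lower regions (56.9%), with a lower median of -9.26 points. For genes past the fixed size, exon levels gave 50 higher and 9 lower, 10 points gave 132 and 18, and 30 points gave 5 and 1. The exon level measures another feature of the same genes, and the other settings use fewer regions or another size. Any further cause was not tested. Without replicates or depth, no count here separates sampling of reads from a difference between conditions.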
